A study of Mus musculus with 96 samples.

Results

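The genes described here are 9 members of the p53 pathway, Trp53, Mdm2, Mdm4, Ccng1, Zmat3, Sesn1, Atm, Ppm1d and Trp53inp1, of the 38406 genes counted in single hematopoietic stem cells (HSCs) of the mouse. They were chosen by name, and all 9 had counts. The cells came from the femurs and tibiae of C57BL/6 mice aged 9 to 12 weeks according to the labels, with no genotype or treatment to compare. They were sorted by FACS, 1 cell per well, as HSC1 cells, the CD150+ CD48- CD34- Flt3- fraction of Lin- Sca-1+ c-Kit+ bone marrow. All 96 cells form 1 group, and no source used here ties a cell to an animal, so values are given over cells as a description, and the spread is between cells and not between mice.

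In the p53 pathway, kinases that sense DNA damage, ATM among them, phosphorylate the transcription factor p53 and stabilize it. p53 then raises transcription of genes for cell-cycle arrest, apoptosis, repair and metabolism, and also of genes whose products switch it off again, such as the ubiquitin ligase MDM2 and the phosphatase encoded by Ppm1d. In mouse HSCs, p53 is known for holding cells in quiescence and for removing damaged cells.

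Of the 96 cells, 92 passed a filter on depth, detected genes and the share of ERCC spike-ins, which are RNAs added to every well. These 92 cells held 739093 to 3473151 gene counts (median 1599930) and 4945 to 8727 detected genes. Of 12 HSC marker genes, 11 were counted in at least 50% of the cells, while no marker of erythroid cells, B cells, T cells or stroma was. The summed normalized counts of these lists reached at most 778 for erythroid cells, 89.6 for B cells, 19.8 for T cells and 25.4 for stroma. Of 8 granulocyte and monocyte markers, Lyz2 was counted in 92 cells and Prtn3 in 90, with Elane and Mpo at 0 in all, and the summed normalized count of that list was 163 to 3683. Of 5 megakaryocyte markers, Gp9 was counted in 53 cells, and the summed normalized count was 0 to 8620. The part of these cell types in the results below was not tested. The 9 genes took 0.0856% of all gene counts. Values are normalized counts, which are counts divided by a size factor per cell. Without molecular identifiers, reads are not independent molecules. The intervals given are exact binomial intervals on the number of cells with a count. They take cells as independent and do not cover differences between mice.

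The sequences before the transcription starts show where 4 of the genes carry a p53 half-site, the 10-base unit that p53 recognizes in pairs. Shown are the 4 members counted in at least 50% of the cells, over 250 bases before a start, 5′ to 3′ on the strand of the gene, from RefSeq on GRCm38.p6, with the half-site in capitals. The Trp53 stretch is chr11:69580109-69580358 on the plus strand, that of Mdm2 chr10:117710759-117711008 on the minus strand, that of Ccng1 chr11:40755287-40755536 on the minus strand, and that of the second Sesn1 start chr10:41887189-41887438 on the plus strand.
Trp53: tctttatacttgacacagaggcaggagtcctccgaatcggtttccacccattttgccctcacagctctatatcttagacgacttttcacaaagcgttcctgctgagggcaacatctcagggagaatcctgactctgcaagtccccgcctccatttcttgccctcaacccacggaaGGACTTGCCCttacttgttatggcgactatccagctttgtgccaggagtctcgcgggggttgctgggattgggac
Mdm2: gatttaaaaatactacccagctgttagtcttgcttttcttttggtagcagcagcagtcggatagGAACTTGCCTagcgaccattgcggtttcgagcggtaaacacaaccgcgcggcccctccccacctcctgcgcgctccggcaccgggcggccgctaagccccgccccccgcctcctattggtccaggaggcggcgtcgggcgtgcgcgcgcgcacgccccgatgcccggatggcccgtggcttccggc
Ccng1: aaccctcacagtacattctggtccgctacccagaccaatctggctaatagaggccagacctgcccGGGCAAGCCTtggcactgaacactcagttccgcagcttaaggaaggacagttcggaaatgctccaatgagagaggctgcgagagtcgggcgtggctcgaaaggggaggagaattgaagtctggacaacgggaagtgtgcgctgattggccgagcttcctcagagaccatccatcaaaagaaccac
Sesn1: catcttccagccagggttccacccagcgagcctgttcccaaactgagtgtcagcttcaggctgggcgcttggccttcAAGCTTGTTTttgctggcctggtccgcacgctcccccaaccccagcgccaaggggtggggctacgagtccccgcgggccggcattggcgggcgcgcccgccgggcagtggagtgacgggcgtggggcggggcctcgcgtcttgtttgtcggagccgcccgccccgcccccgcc
The half-site began 75 bases before the start in Trp53, 186 in Mdm2, 185 in Ccng1 and 173 in Sesn1. RefSeq windows of 300 bases, running from 250 before to 50 after a start, were at hand for 7 of the 9 genes, with 9 windows in all. A half-site, searched on both strands, lay in 5 of these 9 windows, the fifth being that of Ppm1d at 132 bases before the start, against 8.36% of 32851 windows of all genes. The Atm window, both Mdm4 windows and the first Sesn1 window held none. No window of these genes held more than 1 half-site that matched in full, so no pair of full matches was found in them. Near matches were not counted, so pairs with an imperfect half-site could not be found this way. In Ccng1, the bases directly before the capitals come close to a second half-site. One fixed form of a pair, also searched, lay in 0 of the 9 windows, against 0.712% of all windows. With a share that low, 9 windows cannot show whether these genes differ from others in it. The CCAAT box lay in 7 of the 9 windows, against 37.4% of all windows, and GGGCGG in 5 of 9, against 35.7%. These are matches of letters and not measured binding.

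Trp53 itself was counted in every cell, and Sesn1 in nearly every cell, whereas the remaining 7 genes were patchy. Of the 9 genes, 4 (Trp53, Sesn1, Mdm2 and Ccng1) were counted in at least 50% of the cells, beside 29.1% of all 21211 genes with counts. The other 5 were counted in 7 to 42 of the 92 cells. A cell had counts for a median of 5 of the 9 genes. The plot of normalized counts by cell shows both patterns.

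**Figure D1:**
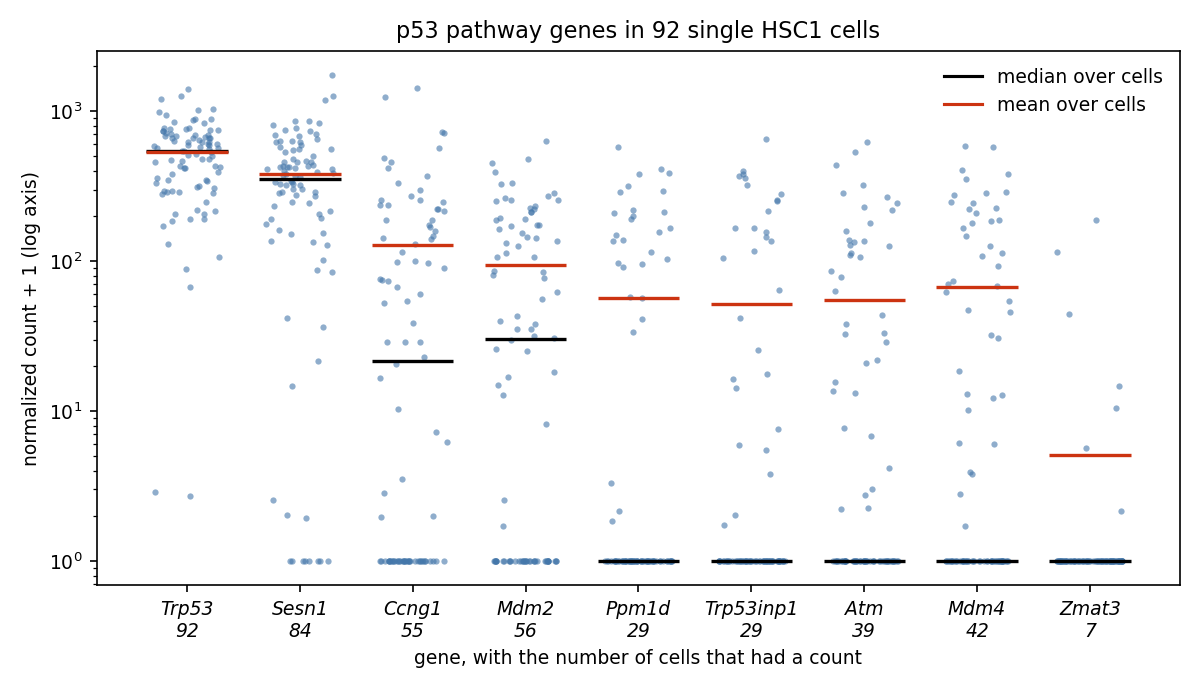
Normalized count + 1 (log axis) of each p53 pathway gene in 92 HSC1 cells, 1 point per cell, ordered by level per kilobase of exon, with the median as a black and the mean as a red line. Trp53 has a count in all 92 cells and its mean and median nearly meet, whereas Zmat3 has a count in 7 cells.

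Atm (ENSMUSG00000034218.16, GRCm38 chromosome 9, 53439149 to 53536740, minus strand) encodes the kinase that responds to DNA double-strand breaks. Its normalized count was 0 at the lowest and at the median and 620 at the highest, in cell 19, and it averaged 53.9 ± 115 (SD, n = 92 cells). It was counted in 39 cells, or 42.4% (exact 95% interval 32.1 to 53.1%), and in 32 cells with at least 10 counts. Where it was counted, its median was 84.6, so cells divided into those without a count and those spread over a wide range.

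Trp53 (ENSMUSG00000059552.13, chromosome 11, 69580359 to 69591873, plus strand), which encodes p53, was the only one of the 9 genes with a count in every cell kept. Its normalized count was 1.72 at the lowest, 541 at the median and 1408 at the highest, in cell 3, and averaged 532.6 ± 277 (SD, n = 92). Its mean lay at the 98.3rd percentile of genes with counts, in a ranking without division by gene length. Only cells 30 and 80 were near 0, at 1.72 and 1.91, from 3 counts and 1 count, and the next lowest, cell 15, had 66.7. Cell 80 had the fewest gene counts of the 92, at 739093, but cell 30 had 2733073, so a shallow library accompanied the low value in 1 of the 2 cells. The processed pseudogene Trp53-ps, a separate row of the table, was counted in 4 cells at a mean of 0.0363.

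The negative regulators were lower and patchier. Mdm2 (ENSMUSG00000020184.15, chromosome 10, 117688875 to 117710758, minus strand), the ubiquitin ligase that marks p53 for degradation, was counted in 56 cells (60.9%, exact 95% interval 50.1 to 70.9%). Its normalized count was 0 at the lowest, 29.2 at the median and 635 at the highest, in cell 67, with a mean of 92.6 ± 128 (SD, n = 92). Its 36 cells without a count stood beside 52 cells with at least 10 counts, so few cells lay between.

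Mdm4 (ENSMUSG00000054387.13, chromosome 1, 132959484 to 133030561, minus strand), a relative of MDM2 that binds p53 and blocks its activity, was counted in 42 cells (45.7%, exact 95% interval 35.2 to 56.4%). Its median was 0, its highest normalized count 586 in cell 63, and its mean 66.7 ± 125 (SD, n = 92). Its pseudogene Mdm4-ps was counted in 22 cells at a mean of only 0.552. Ppm1d (ENSMUSG00000020525.17, chromosome 11, 85311244 to 85347066, plus strand), the phosphatase that removes the marks of damage kinases, was counted in 29 cells (31.5%, exact 95% interval 22.2 to 42.04%). Its median was 0, its highest normalized count 578 in cell 20, and its mean 55.5 ± 113 (SD, n = 92). None of the 9 genes shared exon bases with another annotated gene.

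Among the targets of p53, Sesn1 (ENSMUSG00000038332.13, chromosome 10, 41809935 to 41908424, plus strand), a sestrin that restrains growth signaling under stress, was counted in 84 cells (91.3%, exact 95% interval 83.6 to 96.2%). Its normalized count was 0 at the lowest, 351 at the median and 1739 at the highest, in cell 91, with a mean of 380 ± 303 (SD, n = 92). It thus lay close to Trp53 in how many cells had it, and far from the other targets.

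Ccng1 (ENSMUSG00000020326.7, chromosome 11, 40748552 to 40755311, minus strand) encodes cyclin G1, a direct target of p53. It was counted in 55 cells (59.8%, exact 95% interval 49.04 to 69.9%), at a median of 20.7, a highest normalized count of 1422 in cell 20 and a mean of 128 ± 239 (SD, n = 92). Its second highest value was 1237 in cell 63, and cell 59 followed with 726. The highest 5 cells held 39.7% of its total, so its mean stood well above its median.

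Trp53inp1 (ENSMUSG00000028211.11, chromosome 4, 11156431 to 11174379, plus strand), a stress-induced nuclear protein that favors p53 activity, was counted in 29 cells, with a median of 0, a highest normalized count of 649 in cell 13 and a mean of 50.6 ± 118 (SD, n = 92). Zmat3 (ENSMUSG00000027663.12, chromosome 3, 32334792 to 32366014, minus strand), an RNA-binding zinc finger protein and target of p53, was the sparsest of the 9. It was counted in 7 cells (7.61%, exact 95% interval 3.11 to 15.1%), and only 4 of these had at least 10 counts. Its normalized counts in those 7 cells were 188 (cell 71), 114 (cell 82), 43.5 (cell 51), 13.7 (cell 45), 9.56 (cell 40), 4.65 (cell 83) and 1.16 (cell 52). Its mean of 4.08 ± 23.2 (SD, n = 92) therefore rested mostly on cells 71 and 82.

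Since the libraries cover whole transcripts, levels of different genes were compared per kilobase of exon. Trp53 led with a mean normalized count of 132 ± 68.5 per kilobase (SD over 92 cells here and below), followed by Sesn1 with 95.3 ± 76.2 and Ccng1 with 36.4 ± 68.005. Mdm2 had a mean of 18.2 ± 25.2 and Ppm1d of 17.5 ± 35.6 per kilobase. Then came Trp53inp1 with 7.82 ± 18.2, Atm with 5.22 ± 11.1, Mdm4 with 4.50 ± 8.43 and Zmat3 with 0.357 ± 2.03. The genes thus ranged from a transcript found at a high level in almost every cell to one that most libraries lacked.

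For all 8 neighboring pairs in this order, the mean difference within a cell was below 1 SD of the differences, so the order varied from cell to cell. That SD is a spread between cells and does not measure how well the means can be told apart. Trp53 exceeded Sesn1 by 36.3 ± 112 normalized counts per kilobase (mean and SD of the differences), and was higher in 56 of 92 cells. Sesn1 exceeded Ccng1 by 58.9 ± 93.1, and was higher in 68 cells. Mdm2 exceeded Ppm1d by just 0.739 ± 41.9. The first 5 places were also the same with the longest annotated transcript as length, where Mdm4 moved ahead of Trp53inp1 and Atm.

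Ccng1 was the one gene of the 9 called more variable between cells than the technical noise fitted on the spike-ins, and that call rested on 1 cell. The squared coefficient of variation of Ccng1 exceeded the technical value 2.07-fold (adjusted p = 0.000419, Brennecke's chi-square test, Benjamini-Hochberg adjustment over 21211 genes, threshold 0.1). This made 1 of 9 genes called, beside 2.64% of all genes with counts. Without cell 20, the highest for Ccng1, the ratio was 1.61 and the adjusted p 0.226, while leaving out any other single cell kept it at 0.0326 or below. With size factors from the spike-ins the adjusted p of Ccng1 was 0.157 by the same test, and Atm was called in its place (ratio 1.63, adjusted p = 0.0312).

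By a looser rule, 5 of the 9 genes had a squared coefficient of variation above the fitted curve, beside 12.4% of all genes with counts. That share is over genes at every level, whereas all members but Zmat3 had means at the 72.5th percentile or above. The 5 genes above the curve were Ccng1, Trp53inp1 (ratio 1.32), Atm (1.19), Mdm4 (1.12) and Ppm1d (1.11). With size factors from the genes, all but Ccng1 had an adjusted p of 1 in the chi-square test, and the ratio of Ppm1d was 0.963 without cell 20. Sesn1 had a ratio of 0.986, Mdm2 of 0.835, Zmat3 of 0.660 and Trp53 of 0.544. With size factors from the spike-ins, Trp53 (ratio 1.32) and Sesn1 (1.31) lay above the curve and Trp53inp1 (0.982) below it. The number above the curve was 4 to 7 over 10 alternatives.

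**Figure D2:**
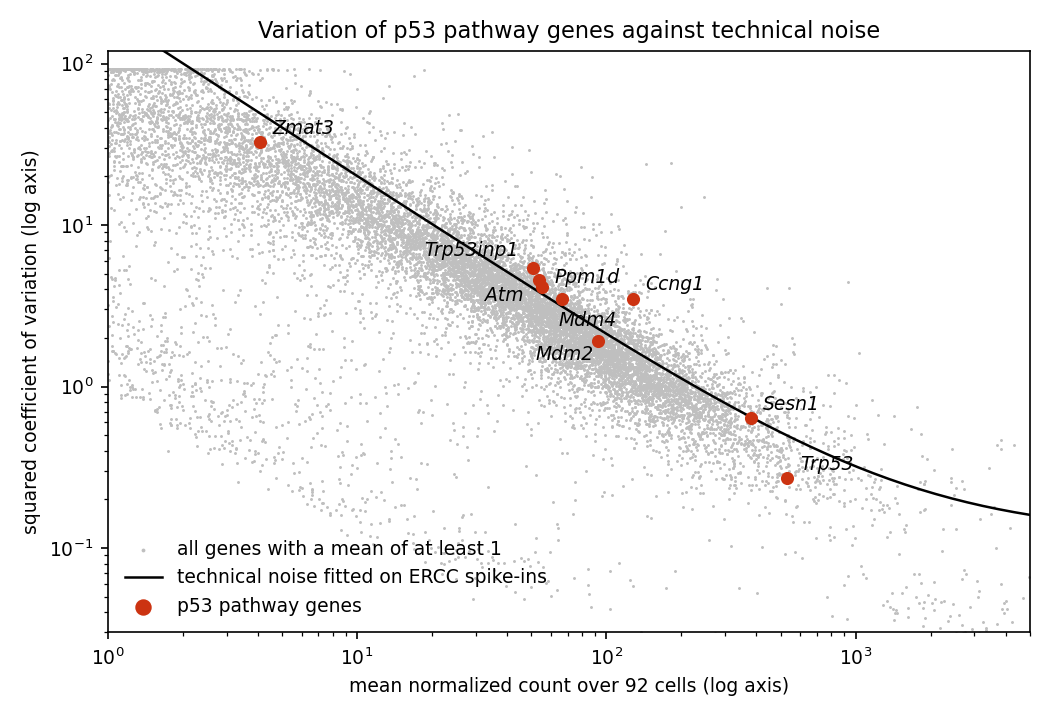
Squared coefficient of variation against mean normalized count over 92 cells (both log axes), with p53 pathway genes in red, all genes with a mean of at least 1 in gray and the technical noise fitted on ERCC spike-ins as a line. Ccng1 lies 2.07 times above the line, and Trp53 lies below it at a ratio of 0.544.

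Cell 20 stood out for several of the genes at once. It had the highest normalized counts of Ccng1 (1422) and Ppm1d (578) and the second highest of Sesn1 (1258), along with 284 for Mdm4 and 187 for Mdm2. Its Trp53 value, 279, was below the median of that gene, and Atm, Zmat3 and Trp53inp1 had no count in it. Its 1756777 gene counts, 6213 detected genes and ERCC share of 1.52% lay within the range of the other cells. Cell 63, second for Ccng1, was the highest for Mdm4 (586) and had 360 for Trp53inp1, yet it had no Ppm1d. Like cell 20, cell 63 had Mdm2 (256) and Sesn1 (558) above their medians and Trp53 (282) below its median. Cells 20 and 63 thus shared high Ccng1, Mdm4, Mdm2 and Sesn1, and differed in Ppm1d and Trp53inp1. Both were picked for their Ccng1 values. Cells 59 and 54, next for Ccng1, had no Mdm2 count. Mdm4 was 353 in cell 59 and had no count in cell 54. Sesn1 was above its median in both, at 380 in cell 59 and 686 in cell 54.

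Correlations among the 9 genes over cells were weak. Over the 36 pairs, Pearson's r of log10(normalized count + 1) had a median of 0.0269, beside a median of 0.0118 over all pairs of genes counted in at least 50% of the cells. It ran from -0.206 to 0.264, and 32 of the 36 pairs lay within 0.2 of 0. None passed an absolute r of 0.3, which 0.707% of all pairs of genes counted in at least 50% of the cells did. Only 4 of the 9 genes were counted in that many cells, so the 2 sets of pairs differ. With a share that low, 36 pairs cannot show whether these genes differ from others. Cells share their depth and preparation, and in sparse counts values of this size are no finding.

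Trp53 had only weak correlations with the genes it is known to control. Its r was 0.0692 with Ccng1 (rho 0.0326), 0.0607 with Mdm2 (rho 0.0322), -0.0151 with Zmat3 (rho -0.0791) and -0.172 with Sesn1 (rho -0.236), each over 92 cells. It was -0.173 with Ppm1d (rho -0.127), the largest in size, and 0.0581 with Trp53inp1 (rho -0.0262). Mdm2 and Ccng1, both targets, had an r of -0.0862 (rho -0.0498), and 31 cells had both where the product of their shares gives 33.5. With size factors from the genes, the variation of Trp53 lay below the fitted technical noise (ratio 0.544), so these values do not test that control. The p53 protein was not measured in these data.

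The highest r, 0.264 (rho 0.258), was that of Mdm4 with Atm, where 22 cells had both and the product of shares gives 17.8. Next was Mdm2 with Zmat3 at 0.258 (rho 0.325), where all 7 cells with Zmat3 also had Mdm2 and the product of shares gives 4.26. Mdm2 reached 141 to 448 in 6 of those 7 cells and 1.55 in the seventh. Its median was 29.2 over all cells, but 133 over the 56 cells where it was counted. Of the 7 cells, 3 had fewer than 10 counts of Zmat3. Cell 36, left out of the analysis, had 408 raw counts of Zmat3 and 9 of Mdm2. Zmat3 and Ccng1 met in 1 cell, where the product of shares gives 4.18. The lowest r was that of Mdm4 with Sesn1, at -0.206 (rho -0.308).

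**Figure D3:**
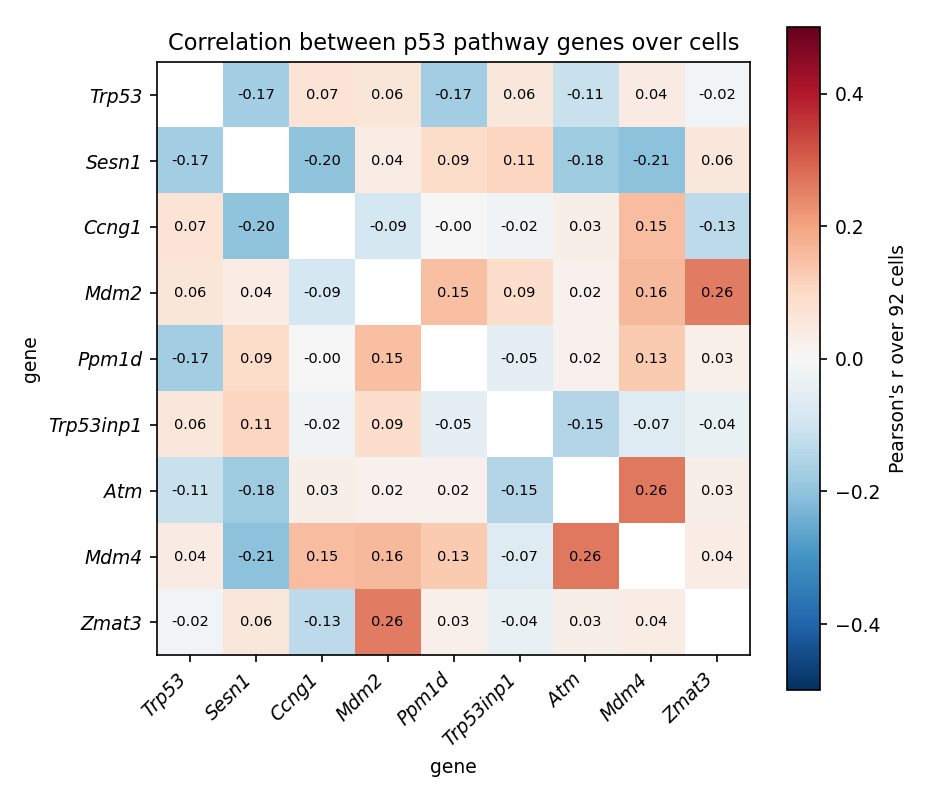
Pearson's r over 92 cells between each pair of p53 pathway genes, on log10(normalized count + 1), in the order of their level per kilobase, with blue below 0 and red above 0. The 36 values run from -0.206 to 0.264.

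The genes followed the number of detected genes little. The r with log10 detected genes was 0.254 for Mdm2, 0.223 for Trp53, 0.175 for Mdm4 and 0.143 for Atm, and lay between -0.104 and 0.0407 for the other 5, beside a median of 0.0648 over all genes with counts. None of the 9 passed 0.3, as did 3.89% of all genes with counts and 7.01% of those counted in at least 50% of the cells. With spike-in size factors, which keep differences in RNA content, r was 0.461 for Trp53 and 0.319 for Mdm2. The number of the 9 genes counted in a cell had an r of 0.284 (rho 0.277) with log10 detected genes.

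Against scores of cell-cycle genes, Sesn1 had the lowest r of the 9. It was -0.281 with a G2/M score (rho -0.178) and -0.201 with a G1/S score (rho -0.230). Without the 2 cells farthest from the median of the score, these values were -0.202 and -0.143. Ppm1d (-0.0394 with G2/M and -0.0407 with G1/S) and Trp53inp1 (-0.113 and -0.118) were also below 0 with both scores, and Zmat3 with the G1/S score (-0.0424). With the G1/S score, Trp53 had an r of 0.207 (rho 0.210, and r 0.2001 once 2 cells were dropped in the same way). The cells farthest from the Trp53 median were not dropped for this value. Atm had 0.225 (rho 0.141, and r 0.114 without 2 cells), and Mdm4 0.205 (rho 0.0894, and r 0.170 without 2 cells). Genes counted in at least 50% of the cells had a median r of 0.0750 with the G1/S score and of 0.0604 with the G2/M score. No r of the 9 genes with any of the 8 measures of the cells passed 0.3 in size, and none is read as a relation.

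**Figure D4:**
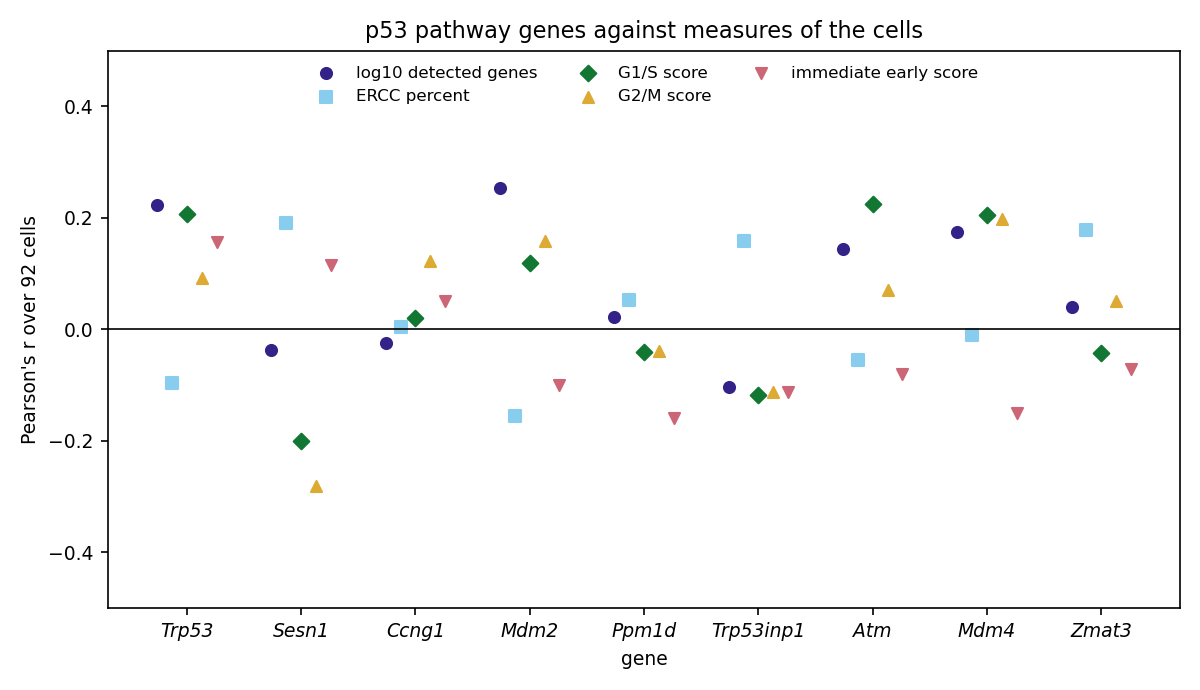
Pearson's r over 92 cells of each p53 pathway gene with the log10 number of detected genes, the ERCC percent of counts and scores of G1/S, G2/M and immediate early genes. All values lie within 0.3 of 0, and the lowest is that of Sesn1 with the G2/M score at -0.281.

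The genes whose pattern over cells was most like a member were sought by Pearson's r among the 6179 genes counted in at least 50% of the cells. For Mdm2 they were Rdh11 (r = 0.421, rho 0.419), Susd1 (r = 0.387) and Jkamp (r = 0.384). For Ccng1 they were Tor3a (r = 0.356, rho 0.367), Tmem161a (r = 0.346) and Acsl3 (r = 0.345), and for Sesn1 they were Ifi203 (r = 0.412, rho 0.277), Pnrc1 (r = 0.396) and Glul (r = 0.394, but 0.230 without the 2 cells farthest from the Sesn1 median). The best r of a gene had a median of 0.414 over all 6179 genes, so the best r of Mdm2 and of Sesn1 lay near that median and the best r of Ccng1 below it. For Trp53 they were Sri (r = 0.565), Puf60 (r = 0.505) and Psap (r = 0.485), but without the 2 cells farthest from the Trp53 median these fell to -0.0205, 0.218 and -0.0685, so the likeness to Trp53 rested on 2 cells.

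Other genes of the pathway, 64 of them in 6 lists by role, were mostly patchy too. Of these, 61 had counts, 20 were counted in at least 50% of the cells, and 5 were called variable beside 2.64% of all genes. Trp63, a relative of p53, Pmaip1, which encodes the apoptosis protein NOXA, and Sco2, an assembly factor of the respiratory chain, had 0 counts in 92 cells. An approximate limit, 3 divided by the number of cells, allows a share of up to 3.26% of cells with a count. That limit is not an exact binomial interval.

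Of the 10 damage sensors and kinases, 2 were called. H2afx, the histone variant marked at DNA breaks, was counted in 72 cells with normalized counts of 126 ± 219 (mean and SD over cells here and below, adjusted p = 0.0414, chi-square test as above). Chek1, a kinase of the replication checkpoint, was counted in 16 cells at 27.01 ± 98.7 (adjusted p = 0.00151). Nbn, a subunit of the complex that binds DNA ends, was counted in 56 cells at 81.2 ± 131 and was not called.

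Of the 18 regulators of p53, 17 had counts and none was called at an adjusted p under 0.1. Npm1, which encodes nucleophosmin, and Rpl11, a ribosomal protein that binds MDM2, were counted in all 92 cells, at mean normalized counts of 1184 and 809 per kilobase, against 132 for Trp53. Cdkn2a, whose ARF product inhibits MDM2, was counted in 1 cell.

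Of the 11 arrest and stress targets, 2 were called. Plk2, a polo-like kinase, was counted in 43 cells with normalized counts of 117 ± 322 (adjusted p = 1.06e-25, chi-square test as above), and Btg2, an antiproliferative factor, in 30 cells at 41.6 ± 120 (adjusted p = 0.0128). Cdkn1a, which encodes the cell-cycle inhibitor p21, was counted in just 10 cells at 7.63 ± 27.4, with a highest value of 158. Of the 13 apoptosis targets none was called. Bax, a pore-forming effector, was counted in 79 cells at 87.6 ± 74.3 and Bid, its activator, in 52 cells at 101 ± 143.

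Of the 10 repair and metabolism targets none was called. Xpc and Ddb2, both sensors of nucleotide damage, were counted in 52 and 36 cells. Of the 2 stem cell targets, Ndn, a growth suppressor, was counted in 73 cells at 270 ± 295, and Gfi1, a transcriptional repressor needed by HSCs, was called from 17 cells at 30.7 ± 158 (adjusted p = 2.07e-29, chi-square test as above). As for Ccng1, 4 of these 5 calls were lost without 1 cell. The adjusted p of the chi-square test was 0.714 for Chek1 without cell 53, 1 for H2afx without cell 66, 0.159 for Btg2 without cell 88 and 1 for Gfi1 without cell 63. Plk2 stayed called whichever cell was left out, with an adjusted p of at most 2.70e-16.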

How the data were processed

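RNA of 96 single HSC1 cells was measured with a full-length single-cell protocol. The authors aligned paired-end reads to mm10 with STAR 2.3.0, and deposited raw counts per gene from HTSeq 0.6.1, with no normalization; SAMtools 0.1.18 is also in the submitters' notes. Strand use in counting is not given in the sources used here.

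Cells were left out when log10 gene counts or log10 detected genes fell below the median by over 3 scaled median absolute deviations, or the ERCC share exceeded it by as much (cells 1, 2, 6 and 36). Size factors were medians of ratios over 602 genes and, apart, 8 spike-ins. Technical noise was a gamma fit over 16 spike-ins whose means were 67.0 or higher. The test asked for a biological coefficient of variation of at least 0.5, and its p covers counting and spike-in noise only. The code was tested on simulated data, where unchanged genes were sometimes called too. Correlations used a pseudocount of 1 and carry no p, since all cells are 1 group. Scores are mean z scores of listed genes. Exon lengths and positions are from GENCODE M21, and listed genes absent under their symbol were matched by older names.

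The members and lists were chosen with earlier results of these data known. Text names the 9 genes, the 2 genes with the highest mean and every called gene of each list, the 3 nearest genes of members counted in at least 50% of the cells, and genes at or near 0 where a list turns on them. Alternatives were other cell filters, size factors, thinning, noise settings, count minimum, length and correlation measure. Python 3.11.15, numpy 2.4.6, pandas 2.3.3 and scipy 1.17.1 were used.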

Additional observations from a re-analysis of the deposited data

Results flagged for a closer look

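Of the 4 cells left out of the analysis, 3 held counts of these genes, and 7 of the 9 genes had more than 3 counts there. That floor of 3 raw counts is a fixed rule for flagging and not a test. Cell 36, with 4948251 gene counts and an ERCC share of 2.88%, had raw counts of 1120 for Sesn1, 580 for Trp53, 408 for Zmat3, 407 for Mdm4 and 9 for Mdm2. Its 408 counts of Zmat3 stand beside a highest raw count of 215 in any of the 92 cells kept, and beside 412 in all of them together. Cell 1, with 633845 gene counts, had 61 counts for Atm and 36 for Ccng1. Cell 6 had 8 counts for Trp53 and 31 for Sesn1, and cell 2, with 1035 gene counts, had none.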

How the results depend on the processing

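The number of the 9 genes counted in at least 50% of the cells was 4 under all 8 alternatives, and the median r over the 36 pairs lay between -0.0127 and 0.0320 under 11. The number called variable was 1 under 8 of 10 alternatives, 2 with spike-ins above the 50th percentile of the means, where Trp53inp1 joined at an adjusted p of 0.00834, and 0 without cell 20. With spike-in size factors the 1 gene called was Atm (adjusted p = 0.0312) in place of Ccng1 (0.157). Over all genes, 1047 were called and 5285 lay above the curve with spike-in size factors, and 1330 and 5320 with spike-ins above the 50th percentile, against 560 and 2627. The number of the 9 genes with an r over 0.3 with detected genes was 0, but 1 with all cells (Trp53, r = 0.603) and 2 with spike-in size factors. Without division by length, the order of the 9 genes had a rho of 0.883 with that per kilobase. Relative to the main scaling, the median log2 shift of gene means was 0.17 with spike-in size factors, -0.14 with all cells and -1.14 after thinning. The cause of these changes was not tested. Omissions of a cell, a cell filter on the linear scale and the longest-transcript length were chosen after seeing the data. No paired analysis was possible because all cells form 1 group. Low counts limit Zmat3 most, with 412 raw counts in all.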
